A study of Homo sapiens with 6 samples.

Results

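The genes described here are 36 genes of glucose breakdown and of the response to low oxygen, chosen by name: 3 transporters, 21 enzymes and regulators of glycolysis and of pyruvate, 10 targets of the hypoxia-inducible factors and 2 of the factors themselves. Every probe of the array whose gene name equalled a member was taken. All 36 were found, on 62 of the 47230 probes, among 31334 gene names in all. One probe stood for 20 of them, and 16 had several. Glycolysis turns glucose into pyruvate in the cytosol, and lactate dehydrogenase or the mitochondrion then takes the pyruvate on. When oxygen is short, hypoxia-inducible factors escape the prolyl hydroxylation that marks them for destruction and switch on glucose uptake, most glycolytic enzymes, lactate export and genes of vessel growth and mitophagy. Human embryonic stem cells in the usual (primed) culture state are known for a high rate of glycolysis.

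The samples were of H1, an established line of human embryonic stem cells, at passage 32, grown without feeder cells on Matrigel in conditioned medium with basic FGF. Cells were transfected with 2 µg of a pSUPER plasmid that expresses a short hairpin RNA (shRNA), either against HERVH, a family of endogenous retroviruses transcribed in these cells, or, as control, against luciferase, and were harvested after 5 days. There were 3 samples in each group. The labels do not say whether the 3 came from separate cultures, so p-values measure the spread between these samples, which may be technical. The labels give neither the share of cells that took up the plasmid nor the number of hairpin sequences, so an effect of one hairpin and an effect of losing HERVH cannot be told apart. Values are the authors' processed intensities of 1-colour Illumina arrays, log2 transformed and quantile normalized here, and are given as normalised intensity on the linear scale. A difference is the log2 mean of HERVH shRNA minus that of control shRNA, and a gene was called when its limma adjusted p, over all probes, was under 0.05.

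The arrays separated by group. Pearson's r over all probes was 0.9944 to 0.9953 for the 6 pairs within a group and 0.9682 to 0.972 for the 9 pairs between groups. No gene name on the array contained HERVH, so the depletion itself was not read. Of 10 genes associated with HERVH or its LTR7 repeat, 3 fell (ABHD12B, HHLA2 and SCGB3A2) and 2 rose (GSDMB and KLKB1). These 50% called stand beside 47.9% of all named genes above the array median, where 9 of the 10 lay. Markers of pluripotency and of mesenchyme moved with the shRNA. The array as a whole also moved: past the 75th percentile of probes by mean level, 34.0% of named genes rose and 30.3% fell. Of the pluripotency markers 13 of 15 lay past it, and of the mesenchyme markers 10 of 15. Of 15 markers of pluripotent stem cells, 10 fell and 1, UTF1, rose, and their summed intensity was 42078 to 43088 in the control samples and 30200 to 32605 in the HERVH shRNA samples. POU5F1, the core pluripotency factor also called OCT4, fell, with 2607 to 3194 in the control samples and 1387 to 1439.7 in the HERVH shRNA samples. Of 15 markers of fibroblasts and mesenchyme, 10 rose and 1, S100A4, fell, and their sum was 13797 to 14654 against 33141 to 34650. TAGLN, the smooth muscle protein transgelin, was the largest part of that sum and of its rise, at 6335 to 7122 in the control samples and 19335 to 20948 in the HERVH shRNA samples (chosen after its values were seen). The transcription factor TWIST1, at 103 to 109 in the control samples and 786 to 832 in the HERVH shRNA samples, and the smooth muscle actin ACTA2, at 598 to 679.6 in the control samples and 3755 to 3809 in the HERVH shRNA samples, had the smallest p. Lists of 10 markers each for endoderm, trophoblast, neuroectoderm, and mesoderm and blood had 2, 4, 2 and 1 genes higher and 2, 0, 1 and 0 lower. That is 40%, 40%, 30% and 10% called, beside 28.0% of all named genes and 47.9% of those above the array median. Of these 4 lists, the markers at or below the median probe of the array numbered 5, 3, 5 and 5, beside 1 of the pluripotency list (TERT) and 2 of the mesenchyme list (LUM and DCN). No marker read 0 in any sample, and whether background was subtracted is not given in the sources used here. In bulk RNA, a change in the share of cells of one state and a change in RNA per cell cannot be told apart, and the part of these markers in the results below was not tested.

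Of the 36 genes, read on the probe with the highest mean over all 6 samples, 19 rose with HERVH shRNA, 9 fell and 8 were not called. The array as a whole moved widely: 24.6% of all probes were called, 28.0% of the brightest probes of all named genes, 47.9% of those above the array median and 64.3% of those past the 75th percentile of probes by mean level. The members were bright: 34 of 36, all but PDK1 and CA9, read above the array median. Of the 36, 33 lay past that percentile, and 27 of those 33 were called. Beyond it, 34.0% of named genes rose and 30.3% fell. Over all probes the shares were 12.1% and 12.5%, and over all named genes 14.8% and 13.2%. The 77.8% called among all members is thus to be read against the share for bright probes, not against that for all probes. In 19 genes every HERVH shRNA sample lay above every control sample, and in 10 every one lay below. The groups were likewise apart in 34.8% of all probes, 38.4% of named genes, 59.4% of those above the array median and 76.3% of those past the 75th percentile. HIF1A and PKM2, both among the 19, had other probes that fell. The median difference of the members was 0.30, beside 0.01 for all named genes and 0.005 for all probes above the array median. It was not taken over all named genes past the 75th percentile, where 33 of the members lay, so it is given as a description. The members' median was 0.18 when each array was only centred on its median. Single genes ran from -1.29 to 1.61. A called difference past 1 was found in 5 members, SLC2A1, EPAS1, ADM, ALDOC and PGAM1, and in 2.72% of all named genes (7.86% of those past the 75th percentile). By role, all 3 transporters and 8 of 10 hypoxia targets rose, and the enzymes of the glycolytic chain went both ways. None of the 4 members listed under pyruvate's fate rose.

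**Figure D1:**
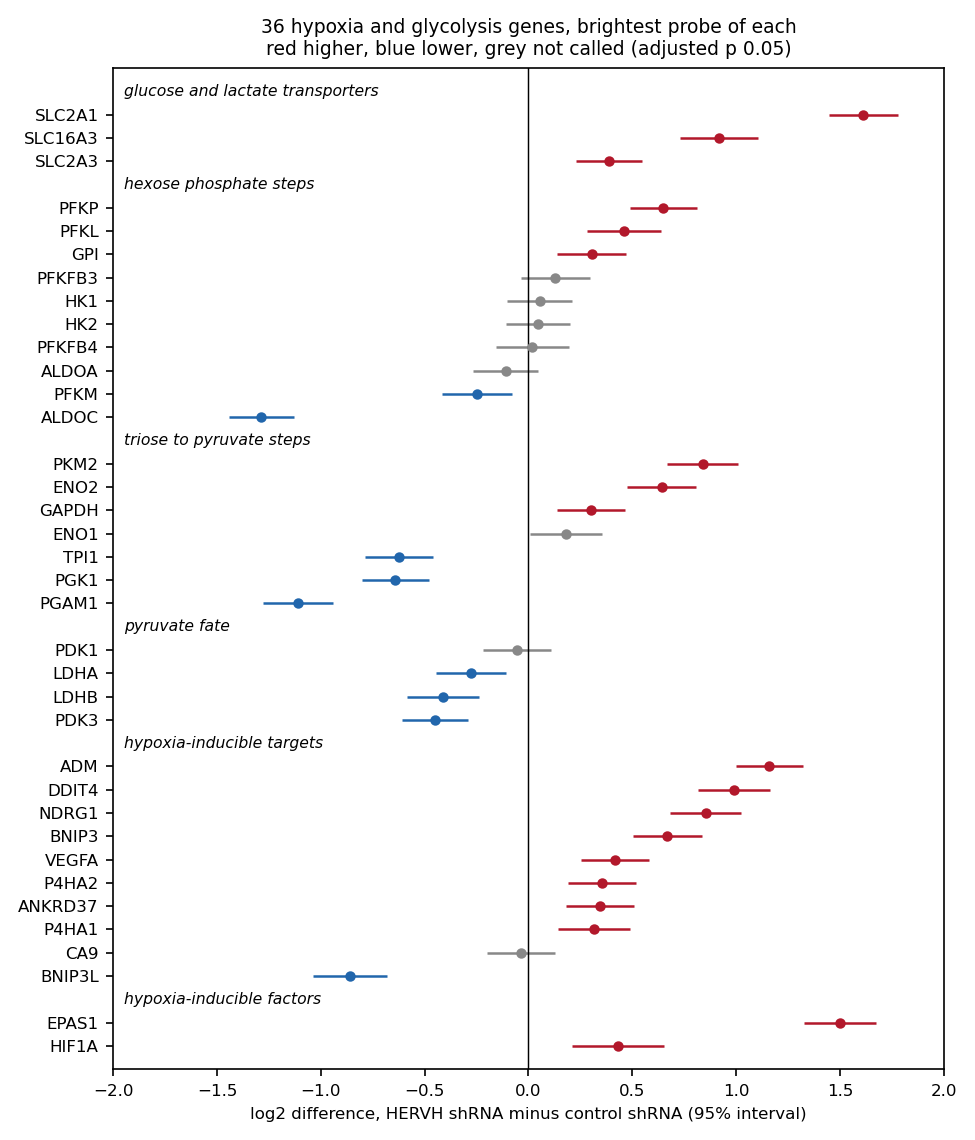
Log2 difference (HERVH shRNA minus control shRNA, x axis) with its 95% interval for the brightest probe of each of the 36 genes, grouped by role; red genes rose, blue genes fell and grey genes were not called. Transporters and hypoxia targets lie mostly to the right, up to 1.61 for SLC2A1, and the genes of pyruvate's fate lie to the left.

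The promoters of the 3 genes that rose most and of the 3 that fell most among the called members with an entry in RefSeq's table (GRCh38.p14) are shown because many members are known targets of the hypoxia-inducible factors, which bind a short core motif. The motif was searched as ACGTG or GCGTG on either strand, so that CACGTG counts on both. Each line gives the 250 bases before the transcription start, 5′ to 3′ on the gene's strand, with motif matches in capitals (a match on the other strand reads CACGT or CACGC). The windows are chr1:42958869-42959118, minus strand, for SLC2A1, chr2:46297157-46297406, plus strand, for EPAS1, chr11:10304823-10305072, plus strand, for ADM, chr17:28576896-28577145, minus strand, for ALDOC, chr10:97427568-97427817, plus strand, for PGAM1, and chrX:78103998-78104247, plus strand, for PGK1.
SLC2A1: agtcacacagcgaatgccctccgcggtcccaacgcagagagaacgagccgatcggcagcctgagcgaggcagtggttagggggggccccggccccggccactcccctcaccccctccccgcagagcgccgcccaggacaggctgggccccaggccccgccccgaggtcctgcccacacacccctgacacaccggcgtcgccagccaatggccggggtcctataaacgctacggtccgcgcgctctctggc
EPAS1: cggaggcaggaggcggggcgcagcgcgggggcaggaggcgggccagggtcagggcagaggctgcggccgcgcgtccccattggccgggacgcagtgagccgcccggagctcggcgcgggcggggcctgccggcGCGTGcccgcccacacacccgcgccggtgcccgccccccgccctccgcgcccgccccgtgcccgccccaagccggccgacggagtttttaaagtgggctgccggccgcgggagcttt
ADM: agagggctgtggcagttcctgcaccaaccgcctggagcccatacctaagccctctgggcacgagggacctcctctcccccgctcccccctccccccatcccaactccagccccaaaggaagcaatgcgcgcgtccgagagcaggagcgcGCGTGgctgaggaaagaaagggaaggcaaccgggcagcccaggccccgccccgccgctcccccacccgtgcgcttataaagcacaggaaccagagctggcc
ALDOC: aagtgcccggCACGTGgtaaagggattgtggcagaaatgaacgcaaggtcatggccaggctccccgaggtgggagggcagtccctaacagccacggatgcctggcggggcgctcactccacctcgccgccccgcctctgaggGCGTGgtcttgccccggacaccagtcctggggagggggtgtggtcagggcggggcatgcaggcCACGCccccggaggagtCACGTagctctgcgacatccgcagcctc
PGAM1: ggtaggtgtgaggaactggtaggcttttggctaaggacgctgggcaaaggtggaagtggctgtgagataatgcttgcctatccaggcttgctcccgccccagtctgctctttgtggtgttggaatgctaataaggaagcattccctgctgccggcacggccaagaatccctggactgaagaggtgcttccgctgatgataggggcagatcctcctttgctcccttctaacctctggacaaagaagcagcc
PGK1: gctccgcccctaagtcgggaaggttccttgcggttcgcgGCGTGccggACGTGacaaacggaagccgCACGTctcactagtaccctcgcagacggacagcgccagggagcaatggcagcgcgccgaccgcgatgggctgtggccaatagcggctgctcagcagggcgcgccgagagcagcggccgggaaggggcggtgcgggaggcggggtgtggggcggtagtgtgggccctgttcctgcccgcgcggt
Among the genes that rose, EPAS1 and ADM held 1 match each and SLC2A1 held 0. Among those that fell, ALDOC held 5 matches, PGK1 held 3 and PGAM1 held 0. Over the table, 32 members had 59 windows, one for each start, and 35 windows (59.3%) held the motif, beside 43.2% of all 35116 windows. By gene, at least 1 window held it in 13 of 16 members that rose, 6 of 8 that fell and 8 of 8 that were not called, and in 47.4% of all symbols. Genes with several starts had more windows in which to hold a match.

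All 3 transporters rose. SLC2A1, the glucose transporter GLUT1, had a normalised intensity of 2879.6, 3169.8 and 2909 in the control samples and 8906, 8851 and 9642 in the HERVH shRNA samples. Each treated sample was far above each control, and the difference was 1.61 ± 0.08 (SE, n = 3 in each group; adjusted p = 2.1e-12), a 3.06-fold increase and the largest of all 36 members. SLC16A3, the lactate exporter MCT4, read 155, 152 and 157 in the control samples and 250.3, 310.0 and 319 in the HERVH shRNA samples. Its lowest treated sample was replicate 1, still above all controls, and the difference was 0.92 ± 0.09 (SE, n = 3 in each group; adjusted p = 6.6e-08). SLC2A3, the high-affinity glucose transporter GLUT3, was 11920.0, 11920.0 and 12089 in the control samples and 14892, 15661 and 16525 in the HERVH shRNA samples. The groups did not overlap, with a smaller difference of 0.39 ± 0.08 (SE; adjusted p = 0.00047). SLC2A3 has a close relative, SLC2A14, whose own probe read 129.6 to 157 in the control samples and 141 to 149.9 in the HERVH shRNA samples and was not called.

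**Figure D2:**
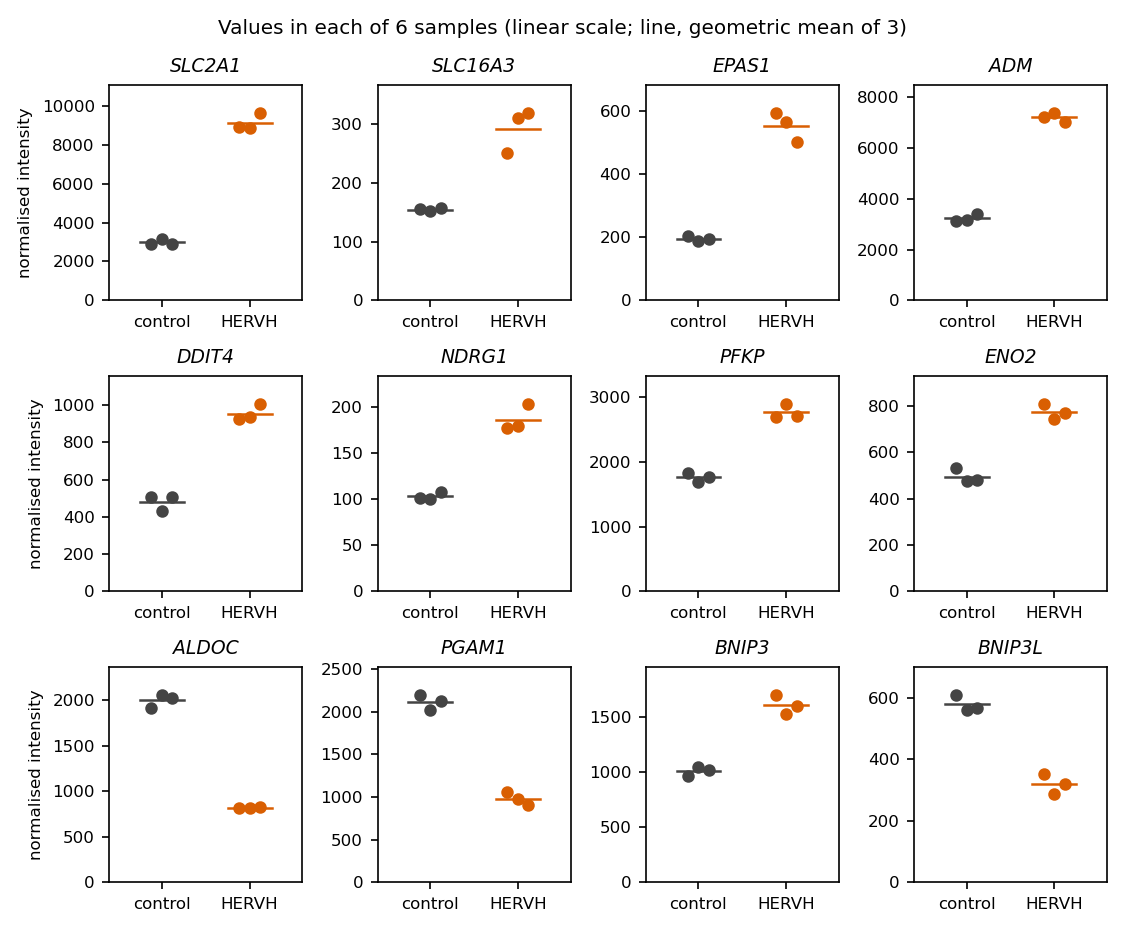
Normalised intensity (linear y axis from 0) in each of the 3 control and 3 HERVH shRNA samples for 12 members; points are samples and lines are geometric means. The 12 are a selection in which no groups overlap. ALDOC, PGAM1 and BNIP3L are lower with HERVH shRNA and the other 9 are higher. Over all 36 members 19 were higher and 10 lower without overlap. The groups were apart in 76.3% of named genes past the 75th percentile.

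The first steps, from glucose to triose phosphates, were mixed: of 10 genes 3 rose, 2 fell and 5 were not called. All 10 lay past the 75th percentile, where 64.3% of named genes were called. The hexokinases, which trap glucose in the cell, gave no call. HK1 was 6061, 5872 and 5889.6 in the control samples and 6280.4, 6216 and 6010.4 in the HERVH shRNA samples, and its difference had a 95% interval of -0.10 to 0.21. HK2, the hypoxia-inducible form, was 357, 356 and 368 in the control samples and 373, 375 and 368 in the HERVH shRNA samples, with an interval of -0.11 to 0.20. Both intervals span 0. GPI, the isomerase of glucose phosphate, rose by 0.30 ± 0.08 (SE; adjusted p = 0.0057), at 1063 to 1174 in the control samples and 1325 to 1458 in the HERVH shRNA samples. With arrays centred on their medians GPI's adjusted p was 0.0534.

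The 3 phosphofructokinase subunits, which catalyse the committed step, did not move as one. PFKP, the platelet-type subunit, was 1829, 1694 and 1769 in the control samples and 2690.1, 2902 and 2709.9 in the HERVH shRNA samples. It rose by 0.65 ± 0.08 (SE, n = 3 in each group; adjusted p = 1.0e-06) with no overlap. PFKL, the liver-type subunit, read 287 to 327 in the control samples and 386 to 455 in the HERVH shRNA samples, a difference of 0.46 ± 0.09 (SE; adjusted p = 0.00027). Averaged with its second, dim probe, PFKL was no longer called (adjusted p = 0.0893). PFKM, the muscle-type subunit, read 902, 836 and 778 in the control samples and 700.3, 680.2 and 737 in the HERVH shRNA samples and went the other way, with -0.25 ± 0.08 (SE; adjusted p = 0.029). PFKM's call was lost without control replicate 1, control replicate 2, HERVH replicate 1 or HERVH replicate 2, with adjusted p of 0.148, 0.0598, 0.073 and 0.11. PFKFB3 and PFKFB4, which make and remove the sugar bisphosphate that activates phosphofructokinase, were not called, with differences of 0.13 and 0.02 and intervals of -0.04 to 0.29 and -0.16 to 0.20.

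The aldolases split fructose bisphosphate into triose phosphates. ALDOC, the brain-type form, was 1916, 2062 and 2027 in the control samples and 816, 817 and 829 in the HERVH shRNA samples. It fell to well under the controls in all 3 treated samples, with a difference of -1.29 ± 0.08 (SE, n = 3 in each group; adjusted p = 3.3e-11), a 2.44-fold decrease and the largest among the brightest probes. The brightest probe of ALDOA, the muscle and general form, was 2987, 2829 and 2818 in the control samples and 2642, 2674 and 2680.4 in the HERVH shRNA samples. Its groups did not overlap, but the difference of -0.11 was not called (adjusted p = 0.37). Another ALDOA probe gave a very different value, described with the other genes of several probes.

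From triose phosphate to pyruvate, 3 of 7 genes rose, 3 fell and ENO1 was not called. All 7 lay past the 75th percentile, where 34.0% of named genes rose and 30.3% fell. TPI1, triose phosphate isomerase, was 3978, 4040.4 and 3735 in the control samples and 2509.8, 2696 and 2436 in the HERVH shRNA samples, a difference of -0.62 ± 0.08 (SE; adjusted p = 2.2e-06). PGK1, the first step that yields ATP, was 2831, 2903 and 2787 in the control samples and 1777, 1924 and 1763 in the HERVH shRNA samples. Its treated samples lay together below the controls, with a difference of -0.64 ± 0.08 (SE; adjusted p = 1.1e-06). PGAM1, phosphoglycerate mutase, read 2198, 2021 and 2129 in the control samples and 1057, 981 and 905 in the HERVH shRNA samples. It fell 2.16-fold, with a difference of -1.11 ± 0.08 (SE, n = 3 in each group; adjusted p = 9.4e-10). The brightest of 4 probes of PGAM4, a near-identical copy, was not called at 2187 to 2375 in the control samples and 2218 to 2582 in the HERVH shRNA samples.

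Between these steps stands GAPDH, which is often used as a reference gene. GAPDH was 10656, 9457 and 10126 in the control samples and 12089, 12465 and 12656 in the HERVH shRNA samples, a difference of 0.30 ± 0.08 (SE; adjusted p = 0.0057) under quantile normalization. It was not called without quantile normalization (0.18, adjusted p = 0.119) or with median centring (0.13, adjusted p = 0.287). ENO2, the neuronal enolase, rose, reading 532, 475 and 480.3 in the control samples and 809, 743 and 767 in the HERVH shRNA samples, by 0.64 ± 0.08 (SE; adjusted p = 1.8e-06). ENO1, the general enolase, was 13099, 12029 and 11069 in the control samples and 12912, 14286 and 13811 in the HERVH shRNA samples. The ENO1 groups overlapped and the difference was 0.18 ± 0.08 (SE; adjusted p = 0.13), although it was called at log2(value + 50) and with a trended, robust variance model (adjusted p = 0.0244 and 0.017). PKM2, the older name of PKM, encodes pyruvate kinase of both muscle types. Its brightest probe was 1336, 1475 and 1397 in the control samples and 2291, 2588 and 2655 in the HERVH shRNA samples and rose by 0.84 ± 0.08 (SE; adjusted p = 6.7e-08), though another PKM2 probe fell and the mean of its 3 probes was not called (adjusted p = 0.112).

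None of the 4 members listed under pyruvate's fate rose, and 3 fell. All but PDK1 lay past the 75th percentile, where 34.0% of named genes rose and 30.3% fell. In a further list of pyruvate entry to the mitochondrion, 4 of 12 genes rose and 3 fell. LDHB, the lactate dehydrogenase subunit of heart type, was 4824, 4431 and 4423 in the control samples and 3121, 3676 and 3505 in the HERVH shRNA samples. All treated samples were lower, with a difference of -0.41 ± 0.08 (SE; adjusted p = 0.00057). LDHA, the muscle-type subunit and a hypoxia target, was 5787, 5745 and 5633 in the control samples and 5137, 4703 and 4359 in the HERVH shRNA samples. The LDHA difference was small, -0.28 ± 0.08 (SE; adjusted p = 0.013), and it was not called without HERVH replicate 3 (adjusted p = 0.0781) or over the mean of its 3 probes (adjusted p = 0.113). The pyruvate dehydrogenase kinases hold pyruvate back from the mitochondrion. PDK3 fell, at 180.1 to 186 in the control samples and 128 to 139.6 in the HERVH shRNA samples, with a difference of -0.45 ± 0.08 (SE; adjusted p = 8.9e-05). PDK1, a known target of HIF-1, read 67.5 to 73.6 in the control samples and 63.7 to 70.3 in the HERVH shRNA samples, below the median probe of the array, so these arrays say little about it. Its difference was -0.05, with an interval of -0.22 to 0.11.

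Of the 10 hypoxia-inducible targets, 8 rose, BNIP3L fell and CA9 was not called. The shares were 34.0% higher and 30.3% lower among named genes past the 75th percentile, where all of the 10 but CA9 and ANKRD37 lay. ADM, which encodes the vasodilator peptide adrenomedullin, was 3138, 3153 and 3408 in the control samples and 7230.4, 7389 and 7035 in the HERVH shRNA samples. Each treated sample was more than 2 times each control, with a difference of 1.16 ± 0.08 (SE, n = 3 in each group; adjusted p = 2.0e-10). DDIT4, an inhibitor of mTORC1 signalling also called REDD1, was 506, 432 and 506 in the control samples and 922, 935 and 1007 in the HERVH shRNA samples. Its difference was 0.99 ± 0.08 (SE, n = 3 in each group; adjusted p = 8.2e-09), a 1.99-fold increase. NDRG1, a stress-responsive gene, was 102, 100.2 and 108 in the control samples and 177, 179.6 and 204 in the HERVH shRNA samples. The difference was 0.85 ± 0.08 (SE; adjusted p = 4.5e-08), from a level not far above the array median. VEGFA, the main growth factor of blood vessels, rose, at 117 to 127 in the control samples and 158 to 174 in the HERVH shRNA samples, by 0.42 ± 0.08 (SE; adjusted p = 0.00028). ANKRD37, an ankyrin repeat protein and HIF-1 target, was dim, at 77.0 to 78.5 in the control samples and 93.6 to 105 in the HERVH shRNA samples, and differed by 0.34 ± 0.08 (SE; adjusted p = 0.0017).

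BNIP3 and BNIP3L, related receptors that mark mitochondria for autophagy, moved in opposite directions. BNIP3 was 959.7, 1049 and 1022 in the control samples and 1699, 1519.8 and 1601 in the HERVH shRNA samples, higher by 0.67 ± 0.08 (SE; adjusted p = 9.2e-07). BNIP3L was 609.7, 559.6 and 566 in the control samples and 353, 287 and 319 in the HERVH shRNA samples, 1.81-fold lower, with a log2 difference of -0.86 ± 0.09 (SE; adjusted p = 8.9e-08). In neither gene did the groups overlap. The second BNIP3L probe was dimmer and not called, at 129.6 to 142 in the control samples and 97.6 to 136 in the HERVH shRNA samples.

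P4HA1 and P4HA2 encode the catalytic subunits of collagen prolyl 4-hydroxylase. P4HA1 was 627, 634 and 735 in the control samples and 871, 807 and 804 in the HERVH shRNA samples, a difference of 0.32 ± 0.08 (SE; adjusted p = 0.0061) that was not called with median centring (adjusted p = 0.0569). P4HA2 was 307, 275 and 277 in the control samples and 365, 357 and 376 in the HERVH shRNA samples, with 0.36 ± 0.08 (SE; adjusted p = 0.0013). Both rose beside the collagen genes of the mesenchyme list. Of these COL1A2 rose most, 4.26-fold, at 629.8 to 679 in the control samples and 2657 to 2860.4 in the HERVH shRNA samples. COL1A1, COL3A1, COL5A1 and COL6A3 rose 1.44-, 1.25-, 1.76- and 1.43-fold. COL3A1 was dim, near the array median, at 62.7 to 69.0 in the control samples and 78.3 to 90.1 in the HERVH shRNA samples. CA9, a carbonic anhydrase and one of the classic hypoxia genes, was below the array median, at 66.5 to 72.0 in the control samples and 65.4 to 71.0 in the HERVH shRNA samples. Its groups overlapped, with an interval of -0.20 to 0.13.

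Of the factors themselves, EPAS1, which encodes HIF-2α, was 203, 188 and 193 in the control samples and 593, 564 and 499.9 in the HERVH shRNA samples. Every treated sample was more than 2 times every control, and EPAS1 rose 2.83-fold, by 1.50 ± 0.08 (SE, n = 3 in each group; adjusted p = 1.2e-11). HIF1A, which encodes HIF-1α, was read by 3 probes above the array median that disagreed in sign. The brightest was 309, 281 and 288 in the control samples and 494, 359 and 345 in the HERVH shRNA samples, higher by 0.43 ± 0.11 (SE; adjusted p = 0.0038), with replicate 1 of the treated samples standing above the other 2. A second probe was 219, 193 and 216 in the control samples and 135, 125 and 135 in the HERVH shRNA samples, lower, with -0.67 ± 0.08 (SE; adjusted p = 1.3e-06). The third was dim, at 94.6 to 116 in the control samples and 75.5 to 92.4 in the HERVH shRNA samples, and also lower, with -0.28 ± 0.09 (SE; adjusted p = 0.028). The mean of the 3 probes was −0.17 and not called (adjusted p = 0.176). HIF1A is counted among the members that rose by its brightest probe only, and no direction is given for the gene as a whole. Oxygen controls both factors mainly through the stability of the protein, which these arrays do not read.

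Probes of one gene often gave different answers. Among the 15 members with 2 or more probes above the array median there were 21 pairs of probes, and the log2 differences of 15 pairs differed at an adjusted p under 0.05 (limma on the probe-to-probe log ratio per sample, adjusted over the 21 pairs). In ALDOA, probe ILMN_1736700 was 2101, 2130.0 and 2031 in the control samples and 289.9, 279 and 267 in the HERVH shRNA samples. That is a 7.49-fold decrease, the largest of the 62 probes, while probe ILMN_1741148 was nearly level. The 2 differences were apart by -2.80 ± 0.08 (SE; limma adjusted p = 4.7e-11 over the pairs). In PGAM1 both probes fell, but ILMN_1661366, at 725 to 776 in the control samples and 132 to 139 in the HERVH shRNA samples, fell 5.46-fold and the brighter ILMN_2112417 fell 2.16-fold. In PKM2, ILMN_1672650 was 317, 285 and 303 in the control samples and 175, 175 and 193 in the HERVH shRNA samples. It fell, with -0.74 ± 0.08 (SE; adjusted p = 2.8e-07), against a rise of the brighter ILMN_2366634. The 2 were apart by -1.58 ± 0.10 (SE; limma adjusted p = 6.6e-08 over the pairs). The remaining PKM2 probe rose, at 722 to 800.4 in the control samples and 857 to 1135 in the HERVH shRNA samples.

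In PGK1 and TPI1 only the brightest probe was called. The second PGK1 probe, ILMN_2216852, was 802, 858 and 889.7 in the control samples and 821, 857 and 831 in the HERVH shRNA samples, and the second TPI1 probe, ILMN_2181191, was 2264, 3185 and 3287 in the control samples and 2787, 3167 and 2455 in the HERVH shRNA samples. In both the groups overlapped. The decreases of these genes thus rest on 1 of 2 probes. By contrast all 3 GAPDH probes, the 2 brighter of 3 VEGFA probes and the 2 brighter of 3 P4HA2 probes rose. Which transcripts each probe reads was not examined, and 14 of the 36 members have RefSeq copies that carry their name. There are 65 such copies of GAPDH, 46 of BNIP3 and 13 of PGAM1, and their part in the signals was not tested. The 10 member probes at or below the array median, on genes such as HK1, ALDOA and VEGFA, gave 0 calls.

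**Figure D3:**
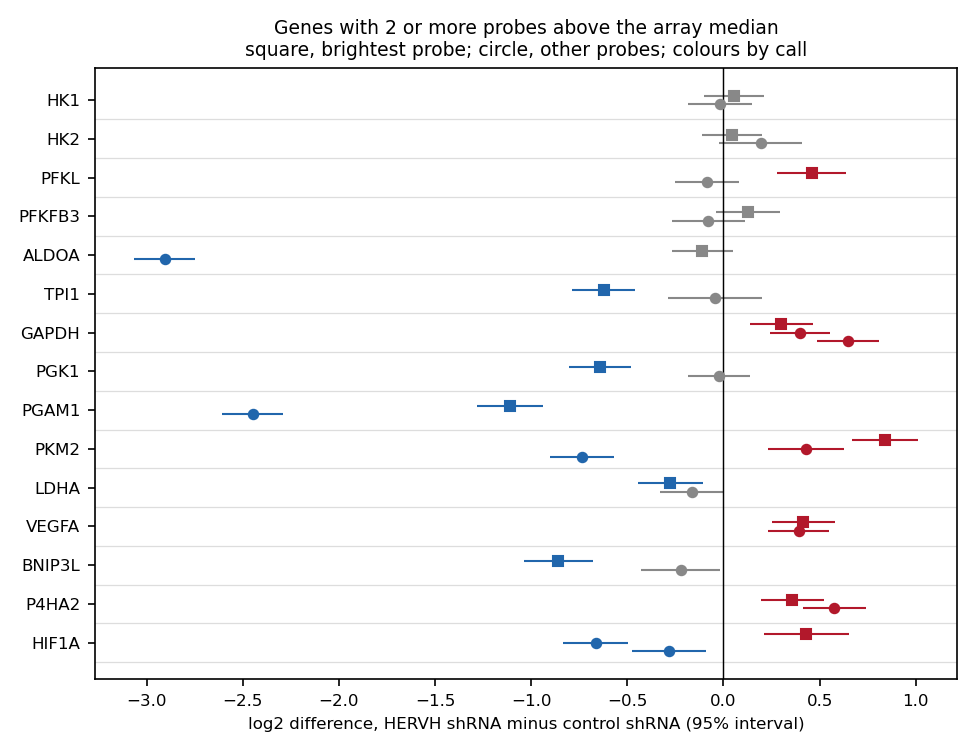
Log2 difference (x axis) with its 95% interval for each probe above the array median of the 15 members with 2 or more such probes; squares are the brightest probe of a gene, circles the others, and colours give the call. ALDOA, PGAM1, PKM2 and HIF1A show the widest spread between probes, while VEGFA, LDHA and HK1 show little.

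Genes around these pathways were read from 6 further lists of 100 genes in all, of which 37 rose and 17 fell. That is 54% of all 100 genes, of which 81 lay above the array median and 57 past the 75th percentile. Among all named genes 28.0% were called, with 47.9% of those above the median and 64.3% of those past that percentile. The share called was not taken over the bright genes of these lists alone, so their counts are given as a description. Among 35 further hypoxia targets 16 rose and 5 fell (60% called), with a median difference of 0.17. The 5 that fell, named after their values were seen, were TFRC (-0.73), TMEM45A (-0.42), C7orf68 (-0.34), PPP1R3C (-0.33) and STC1 (-0.24). HMOX1, heme oxygenase 1, differed by 2.01 (adjusted p = 4.6e-14), BHLHE40, a repressor of transcription, by 1.80 (adjusted p = 3.7e-13), and GBE1, the glycogen branching enzyme, by 1.47 (adjusted p = 7.8e-12). Several genes of this list answer to signals other than low oxygen as well, and 6 of its 35 were at or below the array median.

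Of 14 genes of oxygen sensing and HIF partners, 5 rose and 2 fell (50% called), with a median difference of 0.03. Of the 14, 13 lay above the array median, where 47.9% of named genes were called. Past the 75th percentile, where 64.3% were called, lay 9. The 2 that fell, named after their values were seen, were RBX1 (-0.37) and EGLN2 (-0.22). CITED2, which competes with the factors for p300 and CBP, read 239, 260.2 and 261 in the control samples and 505, 543 and 517 in the HERVH shRNA samples and rose by 1.04 ± 0.08 (SE; adjusted p = 1.3e-09). SIAH2, a ubiquitin ligase that acts on the prolyl hydroxylases, rose by 0.91 (adjusted p = 1.5e-08). EGLN3, a prolyl hydroxylase that is itself a hypoxia target, rose by 0.84 (adjusted p = 2.0e-07). VHL, which targets hydroxylated factors for destruction, rose by 0.50 (adjusted p = 3.4e-05).

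Of 25 further genes of glycolysis and glucose handling, 7 rose and 5 fell (48% called), and 10 were at or below the array median. SLC2A12, a glucose transporter, was 139.9, 119.6 and 121 in the control samples and 546, 544 and 583 in the HERVH shRNA samples, a difference of 2.14 ± 0.08 (SE; adjusted p = 5.7e-14). C12orf5, the older name of TIGAR, which lowers the sugar bisphosphate that activates phosphofructokinase, rose by 0.80 (adjusted p = 3.6e-08). PGM1, which links glycogen to glycolysis, fell, with -0.66 ± 0.08 (SE; adjusted p = 8.4e-07). PKLR, the liver and red cell pyruvate kinase, differed by 0.52 (adjusted p = 1.7e-05) from a level near the array median.

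Among 12 genes of pyruvate entry to the mitochondrion, 4 rose and 3 fell (58.3% called). BRP44L, the older name of MPC1, a subunit of the mitochondrial pyruvate carrier, was 682, 696 and 794 in the control samples and 1505, 1498 and 1514 in the HERVH shRNA samples. It rose by 1.06 ± 0.08 (SE; adjusted p = 1.6e-09). PDP1, the phosphatase that reverses the pyruvate dehydrogenase kinases, rose by 1.01 (adjusted p = 7.6e-09). DLAT and PDHB, which encode subunits of the pyruvate dehydrogenase complex, were lower, with differences of -0.53 (adjusted p = 2.0e-05) and -0.45 (adjusted p = 8.9e-05). Other subunit genes of the complex, PDHX, PDHA1 and DLD, were named after their values were seen. PDHX was lower, with -0.28 (adjusted p = 0.016). PDHA1 and DLD were not called (adjusted p = 0.98 and 0.0517), though every HERVH shRNA sample of DLD lay below every control sample. In the pentose phosphate pathway 3 of 8 genes rose and 2 fell (62.5% called). All 8 lay past the 75th percentile, where 64.3% of named genes were called. Differences were -0.62 (adjusted p = 2.2e-06) for transaldolase (TALDO1), 0.44 (adjusted p = 0.00014) for transketolase (TKT), -0.44 (adjusted p = 0.00033) for RPE and 0.35 (adjusted p = 0.0012) for PGLS. Of 6 genes of gluconeogenesis 2 rose (33.3% called), PCK2, the mitochondrial form of PEP carboxykinase, by 0.89 (adjusted p = 9.0e-09) and G6PC3 by 0.22 (adjusted p = 0.043).

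**Figure D4:**
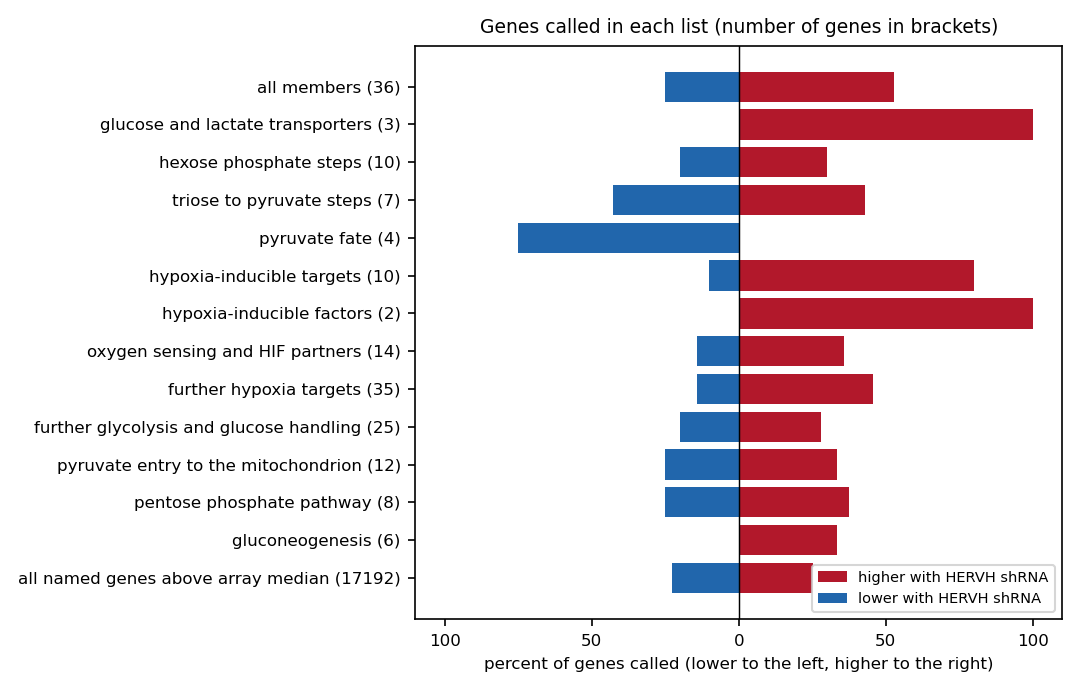
Percent of the genes of each list called higher (right, red) or lower (left, blue) with HERVH shRNA, with the number of genes in brackets; the bottom bar gives all named genes above the array median, 25.4% higher and 22.5% lower, beside 34.0% and 30.3% past the 75th percentile, which is not drawn. Transporters and hypoxia targets lean to the right and the genes of pyruvate's fate to the left, on 3, 10 and 4 genes.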

How the data were processed

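RNA of 6 samples, 3 per group, was measured on 1-colour Illumina arrays. The authors deposited processed intensity values, 1 column per sample; per the submitters' processing notes the tool was GenomeStudio, with no version, while array model, background step and normalization go unstated in the labels. The deposited intensities were linear and all positive, with column medians of 71.15 to 73.79 and unequal distributions. The authors' non-normalized table supplied probe identifiers and gene names only: its 12 columns of signals and detection p-values have numbers that match no sample label and were not used, so detection was not assessed and the array median served as a line for dim probes. Values were log2 transformed without background subtraction, which understates changes of dim probes, and quantile normalized. A limma model (version 3.58.1, R 4.3.3) of the 2 groups was fitted on all 47230 probes, two-sided, with Benjamini-Hochberg adjustment. A gene was read on the probe with the highest mean over 6 samples. The fit was tested on simulated data. All 36 members were accounted for. From each further list at most the 4 genes of smallest p were named with values. Exceptions to this rule were copies, the collagen genes beside P4HA2, TAGLN, PDHX, PDHA1, DLD, RBX1, EGLN2 and the further hypoxia targets that fell. A gene that this rule names among the further hypoxia targets is not reported here. The members and lists were chosen with earlier results of these data known. The number of arrays limits the precision. Alternatives covered normalization, centring, filtering, offsets, replicate block, variance model, array weights, left-out samples, probe rule and background correction.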

Additional observations from a re-analysis of the deposited data

How the results depend on the processing

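Over 16 alternatives, 20 of the 28 called members stayed called in the same direction wherever they were tested, and the numbers of members called and of members whose groups did not overlap stayed within 1.5 times the reported ones. The other 8 (GAPDH, GPI, P4HA1, PFKM, LDHA, PFKL, PKM2 and HIF1A) lost the call under at least 1 alternative. For example, the 19 members called higher became 18 without quantile normalization, 16 with median centring and 20 at log2(value + 50). The median difference of 0.30 was 0.22 without quantile normalization, 0.18 with median centring, 0.26 at log2(value + 50) and 0.18 over the mean of all probes of a gene; leaving out 1 sample at a time gave 0.27 to 0.31. Reversed signs concerned uncalled genes and HIF1A: HK1 was −0.053 without quantile normalization, −0.097 with median centring and −0.011 over the mean of probes, PFKFB4 was −0.015 and −0.060 under the first 2 of these and ran from −0.031 to 0.11 with 1 sample left out, HK2 was −0.036 with median centring, CA9 was 0.012 without quantile normalization, and HIF1A was −0.17 over the mean of probes. ALDOA became called over the mean of its probes (−0.75). For changes of scaling the cause was not tested; the mean of probes differs by construction where probes disagree. With normexp background correction, chosen after seeing the data, 19 members rose and 9 fell, as reported. The deviations of same-numbered samples of the 2 groups had r = 0.089, −0.00032 and 0.053, beside −0.096 to 0.046 for the other pairs of samples. Control replicates 1 and 3 thus correlated best with their own number and control replicate 2 did not, all weakly. The labels do not say that a number marks a shared culture, and the numbers were not taken as pairs. With the replicate block 19 members rose and 9 fell. Quantile normalization, the choice of probe and the lack of detection calls limit small differences and dim genes such as CA9 and PDK1.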
